A study of Mus musculus with 4 samples.

Results

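The comparison is between 2 of the study's 4 libraries: colon of wild-type (WT) C57BL/6 mice and colon of C57BL/6 mice labelled Card9-/-, both taken on day 100 of the AOM/DSS protocol. It covers the 15758 of 44788 gene rows that had at least 50 counts in the higher of the 2 libraries. In AOM/DSS, a model of colon cancer on a background of colitis, the mutagen azoxymethane (AOM) is followed by dextran sulfate sodium (DSS), a polymer that injures the colon lining. Per the labels' protocols, both groups received 10 mg/kg AOM into the peritoneum on day 1 and, from 5 days later, 2% DSS of 36 to 50 kDa in the drinking water for 7 days in each of 3 cycles. The other 2 libraries, WT and labelled Card9-/- without treatment, carry the label day 0 and serve below as the level without AOM/DSS. Whether each library came from 1 animal or from several, which stretch of colon was taken and whether tumours were included is not stated in the sources used here. With 1 library per group no difference has a replicate check, and no p-value was computed. Every 95% interval in parentheses stands for counting error alone and not for variation between animals or libraries. No molecular identifiers are recorded for these reads and PCR copies are not independent, so even counting error may be understated.

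The epithelium of the colon renews itself from stem cells at the base of pits called crypts. Wnt signals there keep beta-catenin stable, drive division, and switch on a set of genes that dampen the same signal. Cells that leave the base become colonocytes, which absorb salt, water and short-chain fatty acids, goblet cells, which make mucus, or hormone-producing enteroendocrine cells. AOM/DSS tumours of mice commonly carry mutations that activate beta-catenin. Card9 is an adaptor inside myeloid cells that passes signals from fungus-sensing C-type lectin receptors to Bcl10, Malt1 and NF-kB.

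Card9 itself did not bear out the label. The gene (chromosome 2, 26352187 to 26360945, GRCm38) had 44 counts in untreated WT, 69 in the untreated library labelled Card9-/-, 116 in WT AOM/DSS and 245 in the AOM/DSS library labelled Card9-/-. Both libraries that should lack the gene were higher than the WT library given the same treatment. In CPM, counts scaled to a common library size, Card9 stood at 5.32 and 7.73 in the AOM/DSS pair, 1.45-fold higher in the labelled library (1.16 to 1.83). The table gives no exons, so a partial deletion that leaves a transcript was not tested. All directions below therefore rest on the sample label alone, and "the labelled library" means the AOM/DSS library labelled Card9-/-. Within 500000 bases of Card9, 20 measured neighbours had a median log2 ratio of -0.10. Of these 20, 2 were at least 2-fold higher (Notch1 and Fam69b) and 4 at least 2-fold lower (Nacc2, Lhx3, Agpat2 and Abo). Over all 15758 genes the shares were 11.8% higher and 12.4% lower.

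The receptors and partners of Card9 differed little as a group. Of 18 measured genes of the pathway 3 were higher by 2-fold or more and 1 lower, with a median log2 ratio of 0.07. Clec7a, the receptor dectin-1 for fungal beta-glucan, stood at 5.41 CPM in WT AOM/DSS against 29.6 CPM in the labelled library. Clec4n, which encodes dectin-2, stood at 5.64 and 23.1 CPM. Both were between 3.64 and 4.56 CPM in the untreated libraries, so the labelled library was the high one of the 4. Vav3, a guanine nucleotide exchange factor, was the lower gene at 35.9 and 6.28 CPM. Syk, the kinase above Card9, was at 156 and 140 CPM, and the protease Malt1, below Card9, at 28.8 and 33.8 CPM.

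The labelled library stood apart from all the others. Library totals ran from 23022885 to 27706567 counts. Across 16362 genes its log2 values correlated at 0.827 to 0.855 with the other libraries, which correlated at 0.942 to 0.954 among themselves, a description across genes that are not independent. Rn18s-rs5, a ribosomal RNA gene, held 2.86% of all counts there and 5.27% in WT AOM/DSS, mitochondrial mRNAs 1.56% against 3.90%, and its 10 most abundant genes 6.52% against 13.5%. The part of these differences in the results below was not tested. Of immediate early and heat shock genes, which respond to tissue handling, 1 of 24 was higher and 1 lower (median -0.21). By exonic length, the median log2 ratio of 5 equal groups of genes ran from -0.05 to 0.07.

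Ratios were taken on the log2(CPM + 1) scale, on which low genes differ by less than their true ratio, and printed folds are ratios of CPM without that added 1. By this measure 1867 genes (11.8%) were 2-fold or more above WT AOM/DSS in the labelled library and 1951 (12.4%) 2-fold or more below, so 48.9% of those past 2-fold were higher. Scaling by library totals instead of TMM put that share at 64.2% (2645 higher, 1476 lower), because it moved the median log2 ratio of all genes from 0.03 to 0.28. At 4-fold 501 genes were higher and 563 lower, at 16-fold 96 and 87, and at 64-fold 16 and 15. Abundant genes were more often lower than higher: of 55 genes with a mean of at least 1000 CPM over the pair, 45.5% were lower and 7.27% higher. In the untreated pair of the same labels 685 of 15331 genes were higher and 517 lower, 7.84% in all. Just inside the count minimum, 207 genes with 50 to 54 counts had log2 ratios from -1.76 to 1.38, and just outside it 240 genes with 45 to 49 counts ran from -1.57 to 1.31.

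**Figure D1:**
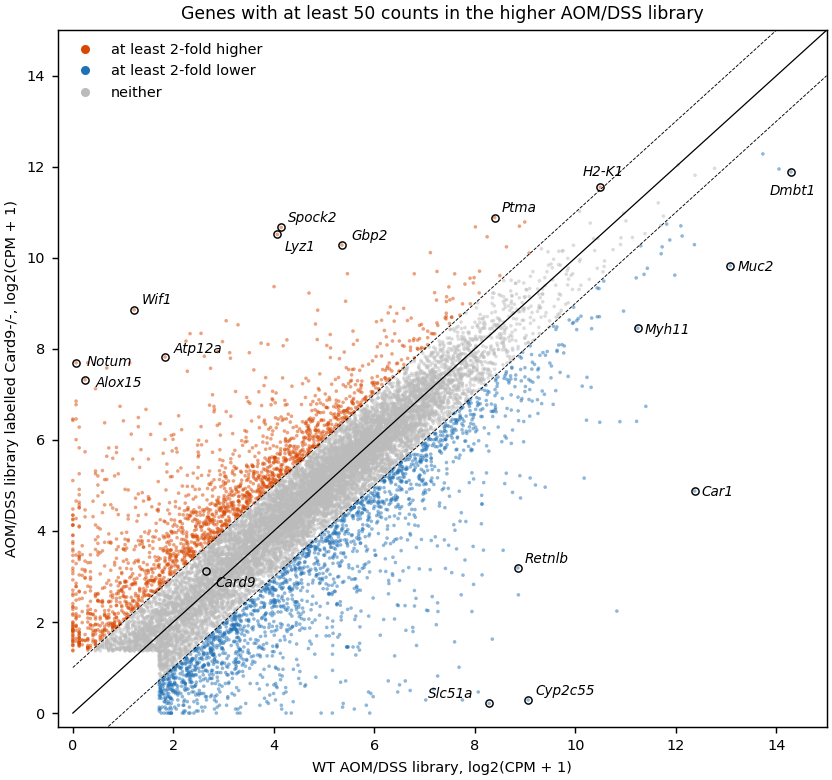
Each point is 1 of 15758 genes, with log2(CPM + 1) in WT AOM/DSS on the horizontal axis and in the AOM/DSS library labelled Card9-/- on the vertical axis; orange marks the 1867 genes at least 2-fold higher, blue the 1951 at least 2-fold lower, dashed lines mark a 2-fold difference and open circles the genes named. Wif1, Notum and Alox15 lie far above the diagonal, Cyp2c55, Slc51a and Car1 far below it, and Card9 close to it.

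Gene lists are described by how many members passed the count minimum, how many were past 2-fold, and their median log2 ratio, to be read against 11.8% higher, 12.4% lower and a median of 0.03 over all genes. Of 71 lists 19 had a median of at least 1 and 14 a median of -1 or less. In bulk tissue, fewer cells of a type and less RNA per cell cannot be told apart, so a list speaks of transcripts in the library and not of cell numbers. Where a member passed the minimum only through the library in which it is high, the minimum favoured a difference. Counts and medians therefore describe the members that passed and nothing more.

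**Figure D2:**
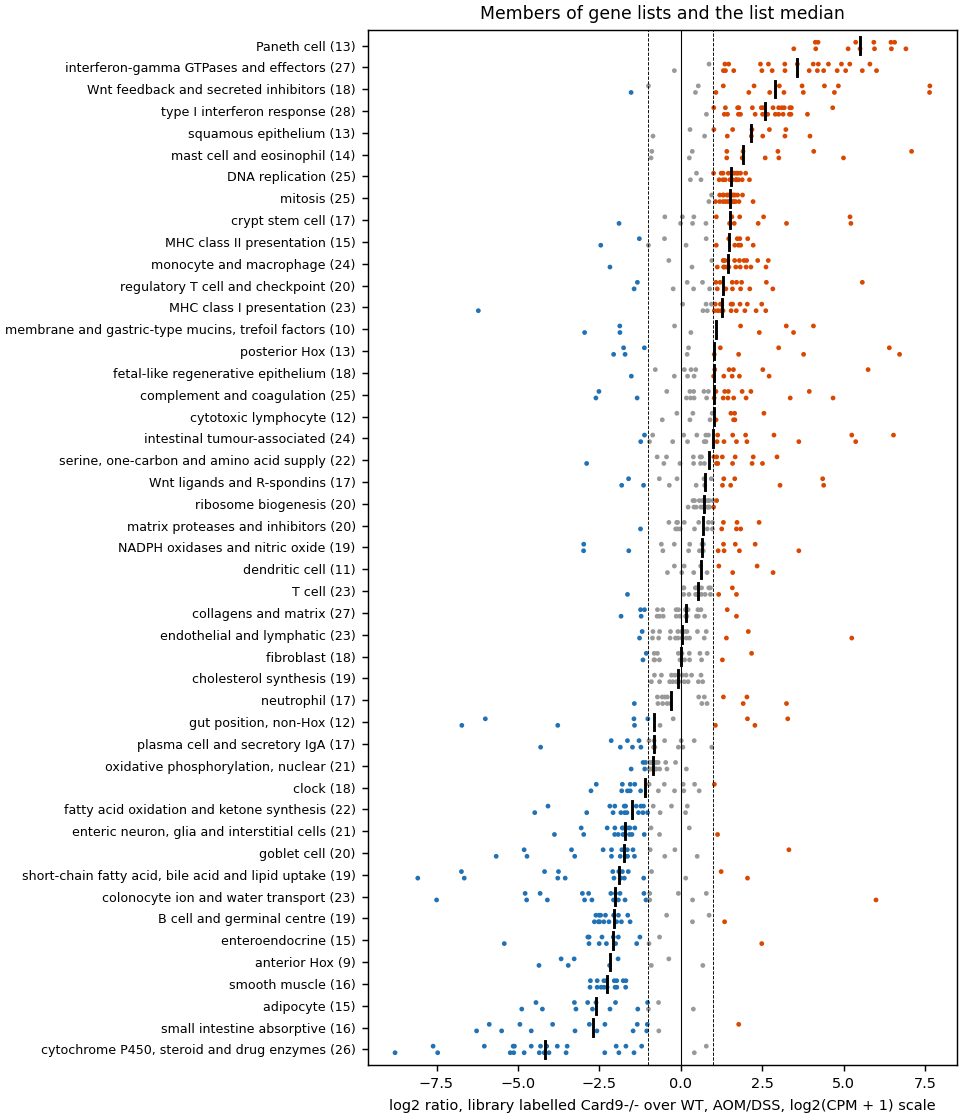
Each row is a gene list with its number of members past the count minimum in parentheses, each point a member's log2 ratio of the AOM/DSS library labelled Card9-/- over WT AOM/DSS on the log2(CPM + 1) scale, and each black bar the list's median; dashed lines mark 2-fold. Paneth cell genes (median 5.50) and interferon-gamma GTPases (3.57) are at the top, cytochrome P450 and steroid enzymes (-4.16) at the bottom, and fibroblast, endothelial and cholesterol synthesis genes near 0. Lists with few members past the minimum, such as pancreas exocrine, or with a small median were left out. Among the latter, the neutrophil, fibroblast, collagen and matrix, cholesterol synthesis, endothelial and lymphatic, and T cell lists were kept by choice.

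Genes that Wnt signalling switches on to restrain itself were much higher in the labelled library. Of 18 measured feedback genes and secreted inhibitors 14 were past 2-fold on the higher side and 1 on the lower (median 2.87, and -0.12 in the untreated pair). Summed, they came to 360, 322, 232 and 2237 CPM in untreated WT, untreated labelled, WT AOM/DSS and the labelled library. Wif1 (chromosome 10, 121034004 to 121100642), a secreted protein that binds Wnt ligands, stood at 1.33 CPM in WT AOM/DSS against 463 CPM in the labelled library, with 2.66 and 1.61 CPM in the untreated pair. On the log2(CPM + 1) scale it had the highest ratio of all ranked genes, and its ratio of CPM was 349 (243 to 521). Notum, an enzyme that removes the lipid from Wnt proteins, had 11, 8 and 1 counts in the untreated WT, untreated labelled and WT AOM/DSS libraries and 6532 counts in the labelled library, a ratio of 4497 that the single count in WT leaves between 807 and 177640.

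Inside the cell the same held for the classic targets. Axin2, a scaffold of the complex that destroys beta-catenin, stood at 40.1 CPM in untreated WT, 35.5 in the untreated labelled library, 10.4 in WT AOM/DSS but 241 CPM in the labelled library, 23.1-fold higher (20.3 to 26.5). Rnf43 and Znrf3, ubiquitin ligases that remove Wnt receptors, had 703 and 218 counts in WT AOM/DSS, and 8514 and 2270 in the labelled library. The labelled library was the highest of the 4 for each of these, and WT AOM/DSS the lowest. The transcription factor Sp5 was 87.2-fold higher (45.8 to 191), Apcdd1, a membrane inhibitor of Wnt, 33.3-fold (27.9 to 40.1) and Nkd1, an inhibitor of Dishevelled, 13.6-fold (12.5 to 14.8). Nkd2, a relative of Nkd1, was the exception, 3.61-fold lower (2.78 to 4.71) at 2.62 CPM against 9.45.

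Wnt ligands and receptors were mixed, with 7 of 17 at least 2-fold higher and 3 lower (median 0.73). Wnt10a had 2, 1 and 2 counts in the other libraries (untreated WT, untreated labelled, WT AOM/DSS) and 689 in the labelled library. Wnt6 went from 0.871 to 37.2 CPM, 42.7-fold higher (27.2 to 71.1). The stromal Wnt enhancer Rspo3 was 3.99-fold lower (3.01 to 5.35), and the receptor Fzd5 3.60-fold lower (3.35 to 3.88). High levels thus concerned some ligands and not others, and both R-spondins that passed the minimum, Rspo1 and Rspo3, were lower.

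Stem cell genes of the crypt base were higher in 10 of 17 cases and lower in 1 (median 1.49, and 0.97 with a pseudocount of 5 CPM). Lgr5, the R-spondin receptor that marks these cells, stood at 9.80 CPM in untreated WT, 9.16 in the untreated labelled library, 1.74 in WT AOM/DSS but 101 CPM in the labelled library. The 57.9-fold difference (42.1 to 82.0) is therefore set against a WT library that was itself below both untreated ones. Ascl2, the transcription factor of crypt stem cells, was likewise lowest in WT AOM/DSS, with 120, 163, 25 and 611 counts in untreated WT, untreated labelled, WT AOM/DSS and the labelled library. Tnfrsf19 was 60.7-fold higher (42.9 to 88.9) and Smoc2, a secreted matrix protein, 5.97-fold (5.50 to 6.49). Prom1, a membrane protein used as a stem and progenitor marker, was 3.74-fold lower (3.63 to 3.85), and Olfm4 stayed under the minimum with 17 and 18 counts.

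The largest gain in CPM of all ranked genes was that of a gene from the list known from intestinal tumours of mice. Spock2, a secreted matrix proteoglycan, stood at 21.0, 13.9 and 16.7 CPM in untreated WT, untreated labelled and WT AOM/DSS and at 1627 CPM in the labelled library, 97.5-fold higher (87.9 to 108). Prox1, a homeobox factor of lymphatic vessels and of Wnt-driven tumours, stood at 8.76 and 369 CPM in the AOM/DSS pair, while the lymphatic genes Lyve1 and Flt4 had log2 ratios of 0.78 and 0.51. Of the 24 genes on that list 12 were higher by 2-fold or more and 2 lower (median 0.98), and Myc was 2.20-fold higher (2.01 to 2.41). The list's median passed 2-fold under 5 of the 10 alternative settings, so its side of that line is not firm.

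Proliferation genes were higher almost without exception. Of 25 DNA replication genes 22 were past 2-fold on the higher side (median 1.55) and of 25 mitosis genes 23 (a median of 2.83-fold), with 0 lower in either list. Top2a, the topoisomerase of dividing cells, stood at 155, 84.8 and 83.2 CPM in untreated WT, untreated labelled and WT AOM/DSS and at 390 CPM in the labelled library. Mcm5, a subunit of the replicative helicase, was 4.39-fold higher (4.07 to 4.73), and Mki67 2.09-fold (2.02 to 2.17). These ratios sit in a narrow band, from 0.29 to 2.21 on the log2 scale over both lists. Ptma, prothymosin alpha, a nuclear protein of dividing cells, stood at 336 and 1889 CPM.

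Genes of biosynthesis split by pathway. Of 22 genes of serine, one-carbon and amino acid supply 11 were higher and 1 lower (median 0.87): Pycr1, which makes proline, was 8.87-fold higher (7.41 to 10.7) and Phgdh, the entry enzyme of serine synthesis, 6.17-fold (5.33 to 7.16), while Slc7a9, an importer of cystine, was 15.6-fold lower (10.3 to 24.5). Ribosome biogenesis genes had log2 ratios from 0.22 to 1.10, of which 2 of 20 passed 2-fold. Cholesterol synthesis genes had 0 of 19 past 2-fold in either direction (median -0.08). Glycolysis and hypoxia genes had 0 of 23 higher and 4 lower (median -0.53), among them Car9 at -2.11.

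Paneth cells are the antimicrobial cells of small intestinal crypts and are normally not found in mouse colon. All 13 Paneth-type genes that passed the minimum were higher in the labelled library (median 5.50), and 4 others did not pass it. Apart from Lyz1, Mmp7 and Pnliprp2, those that passed did so through the labelled library alone. The minimum itself thus favoured higher values there. The summed level of the list was 17.9, 34.4 and 36.7 CPM in untreated WT, untreated labelled and WT AOM/DSS and 3107 CPM in the labelled library. Lyz1, the lysozyme of Paneth cells, stood at 13.7, 24.7, 15.8 and 1461 CPM in the same order, 92.6-fold higher with AOM/DSS (83.3 to 103). Itln1, the lectin intelectin, went from 1.19 to 206 CPM, 172-fold higher (118 to 264). Mmp7, the protease that activates defensins, had 48, 16, 328 and 20899 counts in the same order.

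The defensins were close to absent elsewhere. Defa17 had 0 counts in the other 3 libraries and 2756 in the labelled library, at least 632-fold higher than WT AOM/DSS by a floor of 3 counts in that library. Defa24 had 0, 0, 13 and 6029 counts. In chromosome order, 11 defensin genes and pseudogenes followed by Atp7b formed the longest run of neighbouring measured genes past 2-fold in 1 direction. With most predicted genes and other pseudogenes left out of the order, it held 12 genes on chromosome 8 between 21025545 and 22060074. These genes are near-identical copies, so reads of one may have been assigned to another and the single values are uncertain.

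The rest of the small intestine programme did not accompany them. Of 16 absorptive genes typical of the small intestine 14 were past 2-fold on the lower side and 1 on the higher (median -2.69). Mep1a, a brush border protease, stood at 372, 405 and 466 CPM in untreated WT, untreated labelled and WT AOM/DSS and at 5.05 CPM in the labelled library. Sis, sucrase-isomaltase, had 648 counts in WT AOM/DSS and 0 in the labelled library, at least 314-fold lower by the same floor. Exocrine pancreas genes were mostly at or near 0. Pnliprp1 and Pnliprp2, lipases related to pancreatic lipase, stood at 206 and 287 CPM in the labelled library, while Amy2a5 and Cpa1, amylase and carboxypeptidase of the pancreas, had 0 counts there and Pnlip had 10. Only 4 of 21 exocrine pancreas genes passed the minimum (3 higher, 0 lower).

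**Figure D3:**
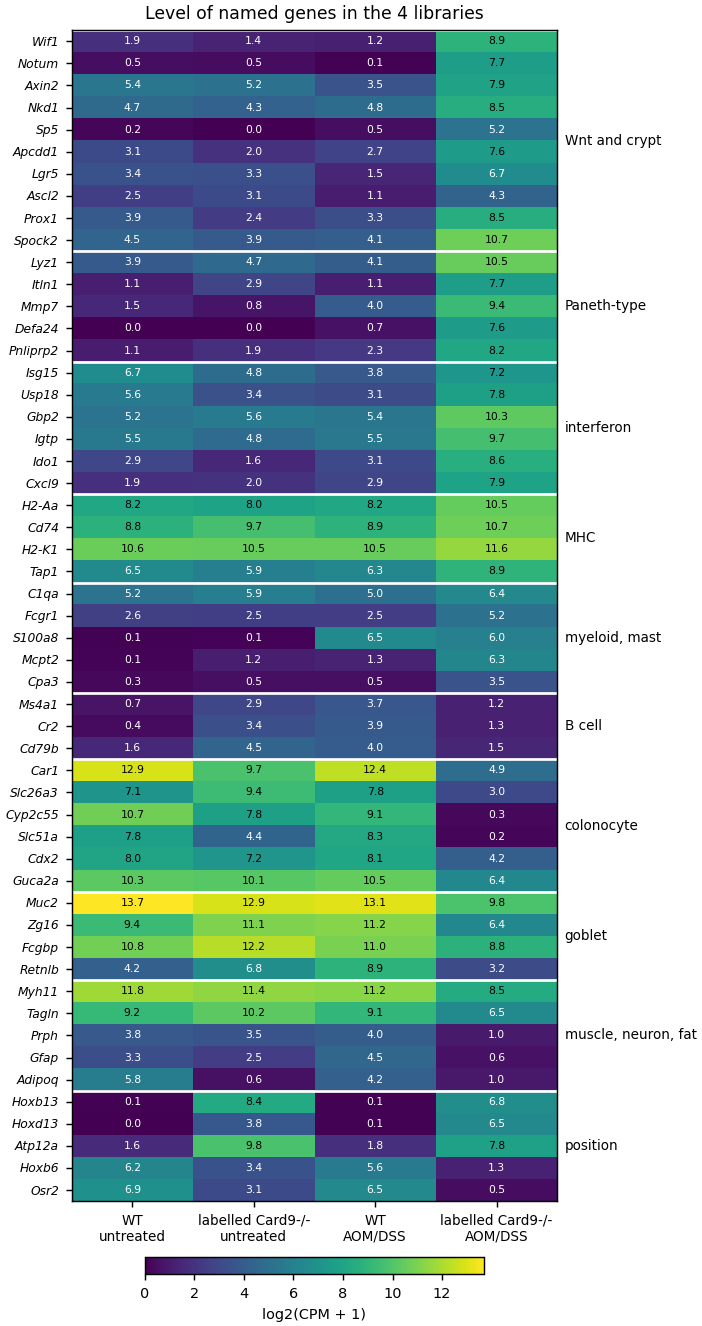
Colour and number give log2(CPM + 1) of named genes (rows, in groups named at the right) in the 4 libraries (columns). Wnt, Paneth-type and most interferon genes are highest in the AOM/DSS library labelled Card9-/-, where colonocyte, goblet, muscle and neural genes are lowest; Hoxb13, Hoxd13 and Atp12a are high in both libraries labelled Card9-/- and near 0 to 2 in both WT libraries.

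Transport genes of colonocytes were mostly lower. Of 23 ion and water transport genes 17 were past 2-fold on the lower side and 1 on the higher (median -2.01). Car1, the colonic carbonic anhydrase, stood at 7654 CPM in untreated WT, 857 in the untreated labelled library, 5313 in WT AOM/DSS but 28.4 CPM in the labelled library, so it was lower under the label in both pairs and by 187-fold (175 to 200) after AOM/DSS. The chloride exchanger Slc26a3 and the water channel Aqp8 were instead highest in the untreated labelled library (674 and 448 CPM). In the AOM/DSS pair Slc26a3 stood at 216 and 7.17 CPM and Aqp8 at 51.1 and 1.61 CPM. Guca2a, the hormone guanylin, was 17.3-fold lower (16.6 to 18.0).

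Detoxifying and steroid enzymes of the epithelium were lower in 24 of 26 cases and higher in 0 (median -4.16), the lowest median of all lists. Cyp2c55, a cytochrome P450, had the lowest ratio of all genes ranked on the log2(CPM + 1) scale, with 42446, 4731, 11623 and 7 counts in untreated WT, untreated labelled, WT AOM/DSS and the labelled library. That is 2412-fold lower (1170 to 6000) in the AOM/DSS pair. Hsd3b3, a steroid dehydrogenase, went from 215 to 0.221 CPM, 971-fold lower (471 to 2416). Ugt1a1, which conjugates bilirubin, was 38.8-fold lower (31.0 to 49.1), and 9 neighbouring genes on chromosome 1, of which 8 are Ugt1a genes that share exons, were all lower.

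Uptake of fatty acids and bile acids followed, with 15 of 19 genes lower and 2 higher (median -1.91). Slc51a, a subunit of the bile acid exporter, had 6785 counts in WT AOM/DSS and 5 in the labelled library, 1971-fold lower (844 to 6073). Fabp2, a fatty acid carrier, stood at 188, 178, 144 and 0.442 CPM in untreated WT, untreated labelled, WT AOM/DSS and the labelled library, so it was low in that 1 library alone. The higher genes were Abcg5 and Abcg8, which form the sterol exporter, with log2 ratios of 2.04 and 1.23. Fatty acid oxidation and ketone synthesis had 17 of 22 genes lower and 0 higher (median -1.51). Ppara, the receptor that switches on these enzymes, was 20.7-fold lower (17.3 to 24.9). Nuclear genes of the respiratory chain had 4 of 21 lower and 0 higher (median -0.86).

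Among epithelial transcription factors 10 of 23 were lower and 3 higher (median -0.39). Cdx2, the homeobox factor of intestinal identity, stood at 258, 143, 279 and 16.9 CPM in untreated WT, untreated labelled, WT AOM/DSS and the labelled library, 16.6-fold lower in the AOM/DSS pair (15.2 to 18.1). Nr1h4, the bile acid receptor FXR, was 7.72-fold lower (7.12 to 8.39), Vdr, the vitamin D receptor, 5.84-fold (5.54 to 6.17) and Hnf4a 2.37-fold (2.32 to 2.42). The genes on the higher side were Id1, Id2 and Id3, inhibitors of basic helix-loop-helix factors induced by BMP, with Id1 at 25.5 and 70.0 CPM.

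Genes of epithelial structure went both ways, with 4 of 21 higher and 4 lower (median -0.20, range -2.82 to 3.74). Cldn15, a pore-forming claudin, was 7.26-fold lower (6.75 to 7.81) and the keratin gene Krt23 15.9-fold higher (13.1 to 19.5). Cdh1, E-cadherin, stood at 833, 1303, 915 and 842 CPM in untreated WT, untreated labelled, WT AOM/DSS and the labelled library, a 1.09-fold difference (1.07 to 1.11) in the AOM/DSS pair. Epcam, a further marker of all epithelial cells, was 1.55-fold lower (1.52 to 1.58), and the keratin gene Krt8 1.48-fold lower (1.47 to 1.49). These last 3, which are expressed throughout the epithelium, were within 2-fold, whereas Krt18, the partner of Krt8, was 2.16-fold higher (2.11 to 2.22). The other lower genes were Lgals4, Krt20 and Vil1, with log2 ratios of -1.65, -1.39 and -1.05. The other higher ones were Cldn8 and Cldn4, at 1.90 and 2.51.

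Goblet cell genes were lower in 15 of 20 cases and higher in 1 (median -1.75). Muc2, the gel-forming mucin of the colon, stood at 13360 CPM in untreated WT, 7440 in the untreated labelled library, 8674 in WT AOM/DSS but 905 CPM in the labelled library, 9.58-fold lower (9.46 to 9.70). Retnlb, an antibacterial protein of goblet cells, went from 462 to 8.11 CPM, but was at 17.2 and 110 CPM in the untreated pair. The difference for Retnlb thus came with a WT AOM/DSS library above both untreated ones. Zg16, a lectin of mucus, was 28.4-fold lower (27.3 to 29.5). Ang4, an antimicrobial ribonuclease, was the higher gene at 5.32 and 61.8 CPM, and was also higher under the label in the untreated pair (4.84 and 127 CPM).

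Membrane and gastric-type mucins and trefoil factors went both ways, with 5 of 10 higher and 3 lower (median 1.07, but 0.32 with no count minimum and 0.45 with a pseudocount of 5 CPM). Muc1, a membrane mucin, was 27.2-fold higher (19.3 to 39.7), and Muc6, a mucin of gastric glands, 22.4-fold (14.2 to 37.5). Both were low in WT AOM/DSS, at 1.51 and 0.871 CPM, and Muc1 was also higher under the label without treatment (20.9 against 1.90 CPM). Muc3, a brush border mucin, was 7.80-fold lower (7.56 to 8.05).

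Of 15 enteroendocrine genes 12 were lower and 1 higher (median -2.07). Gcg, which encodes glucagon-like peptides, stood at 72.9, 112, 58.0 and 0.379 CPM in untreated WT, untreated labelled, WT AOM/DSS and the labelled library. Isl1, a homeobox factor, was the higher one at 0.779 and 8.93 CPM. Tuft cell genes had 1 of 10 higher and 2 lower. The higher gene, Avil, encodes the actin-severing protein advillin and was 17.6-fold higher (14.8 to 21.1), while Dclk1, a kinase that marks tuft cells, was 2.84-fold lower (2.31 to 3.51), and the channel gene Trpm5 was lower on 70 and 14 counts.

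Keratins of squamous, skin-like epithelium were higher at low levels. Of 13 squamous genes 10 were higher and 0 lower (median 2.16, and 0.77 with a pseudocount of 5 CPM). Krt6a had 0, 1, 2 and 507 counts in untreated WT, untreated labelled, WT AOM/DSS and the labelled library, and Krt5 had 4, 4, 14 and 453. Trp63, the master factor of squamous epithelium, had 13 counts in the labelled library and Lor, a protein of cornified skin, had 2, so these defining genes stayed under the minimum. Whether squamous tissue near the anus was included was not tested. Genes of fetal-like, regenerating epithelium were higher in 10 of 18 cases and lower in 1 (median 1.02, but 0.96 with upper-quartile factors and 0.94 with a pseudocount of 5 CPM): Cldn4, a tight junction claudin, stood at 76.5 and 442 CPM, 5.77-fold higher (5.48 to 6.07).

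Genes that mark position along the gut separated the labels in both pairs. Hox genes pattern the body axis, and those with the highest numbers are used at its tail end, including the distal colon and rectum. Hoxb13 had 1 count in each WT library, but 7163 and 3438 counts in the untreated and AOM/DSS libraries labelled Card9-/-. Hoxd13 had 0, 276, 1 and 2758 counts in untreated WT, untreated labelled, WT AOM/DSS and the labelled library, and Hoxa13 had 33, 719, 15 and 396. All 3 were high with the label and near 0 or low without it, whatever the treatment. Atp12a, a proton pump of the distal colon, was also high in both labelled libraries, with 53, 19251, 56 and 7134 counts.

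More anterior Hox genes had the opposite order. Hoxb6 stood at 75.1, 9.76, 48.6 and 1.42 CPM in untreated WT, untreated labelled, WT AOM/DSS and the labelled library, 34.2-fold lower in the AOM/DSS pair (25.4 to 47.2). Of 9 anterior Hox genes 6 were lower and 0 higher (median -2.19, -0.91 with no count minimum, and -1.85 in the untreated pair), and Hoxb9 to Hoxb4 formed a run of 7 neighbouring lower genes on chromosome 11. Of 13 posterior Hox genes 7 were higher and 4 lower (median 1.02 with TMM, 0.97 with upper-quartile factors and 0.23 with no count minimum). Osr2, a transcription factor outside the Hox clusters, was 231-fold lower (132 to 447) and also lower under the label without treatment, at 116 and 7.55 CPM. With 1 library per group, the label and the place on the colon from which a sample came cannot be told apart. This applies to each gene list, above and below.

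**Figure D4:**
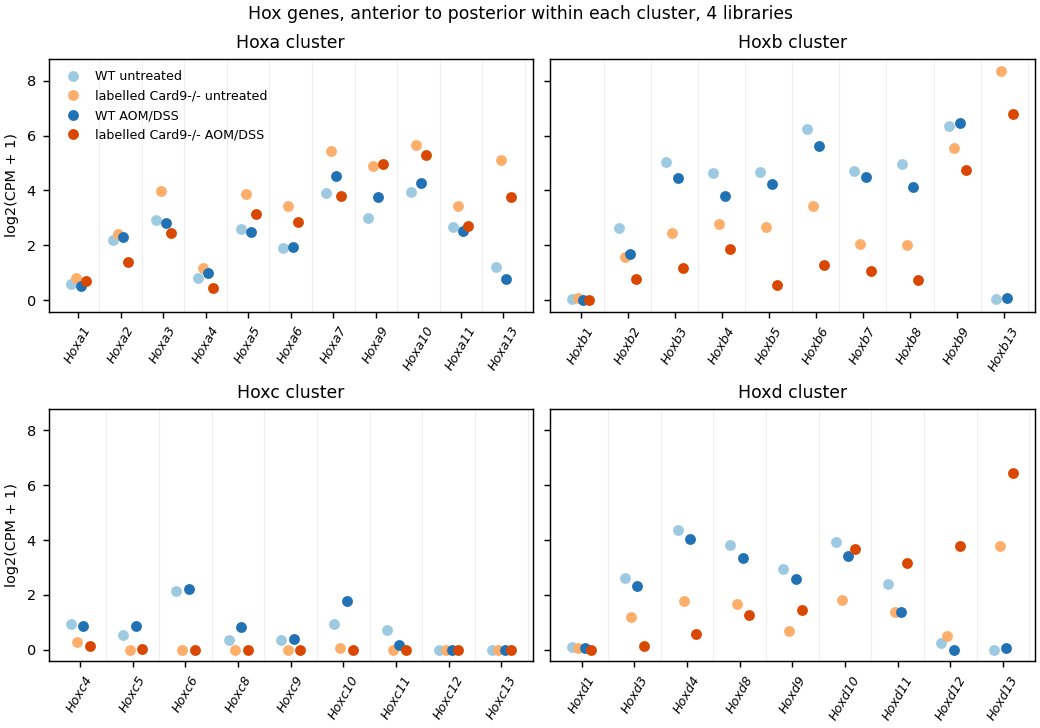
Log2(CPM + 1) of the genes of the 4 Hox clusters, in order from anterior to posterior, in the 4 libraries (light and dark blue for WT untreated and AOM/DSS, light and dark orange for labelled Card9-/- untreated and AOM/DSS). Both orange points lie above both blue ones at Hoxa13, Hoxb13 and Hoxd13 and below them from Hoxb3 to Hoxb8.

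Interferon-induced genes were higher as a block in the labelled library. Interferons act on 2 kinds of promoter sequence: ISRE, the element bound by the complex that type I interferon activates and by IRF factors, and GAS, the element used after interferon gamma. The promoters below belong to 3 type I response genes and 3 GTPases induced by interferon gamma, and are shown because the members of these lists moved together. GAS-type matches, which Igtp and Irgm2 also had, are not marked. Of the members searched, 8 of 19 type I and 11 of 15 interferon-gamma genes had the ISRE-type letters given next. All 6 promoters shown have them, so they do not stand for members without. Each is the 160 bases before the transcription start in RefSeq (GRCm38.p6), 5′ to 3′ on the gene's strand, and capitals mark matches, on either strand, to GAAA followed after any 2 bases by GAAA (overlapping matches merged, so Isg15 holds 3).
Isg15: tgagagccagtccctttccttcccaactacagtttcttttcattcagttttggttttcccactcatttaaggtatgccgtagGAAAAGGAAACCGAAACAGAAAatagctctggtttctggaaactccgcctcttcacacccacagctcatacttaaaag
Ifit3: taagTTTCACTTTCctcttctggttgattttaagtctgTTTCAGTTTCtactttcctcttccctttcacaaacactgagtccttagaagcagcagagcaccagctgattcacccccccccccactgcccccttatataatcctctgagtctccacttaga
Rsad2: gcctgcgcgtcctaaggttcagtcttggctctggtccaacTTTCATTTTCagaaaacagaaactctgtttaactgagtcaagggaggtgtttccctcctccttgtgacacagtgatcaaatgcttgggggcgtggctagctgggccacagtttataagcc
Gbp2: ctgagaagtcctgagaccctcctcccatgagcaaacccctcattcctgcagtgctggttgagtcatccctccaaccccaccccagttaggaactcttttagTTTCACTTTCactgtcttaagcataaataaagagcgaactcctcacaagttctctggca
Igtp: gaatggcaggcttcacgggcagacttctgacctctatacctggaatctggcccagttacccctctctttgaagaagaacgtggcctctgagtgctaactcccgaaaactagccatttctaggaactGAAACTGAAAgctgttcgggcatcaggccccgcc
Irgm2: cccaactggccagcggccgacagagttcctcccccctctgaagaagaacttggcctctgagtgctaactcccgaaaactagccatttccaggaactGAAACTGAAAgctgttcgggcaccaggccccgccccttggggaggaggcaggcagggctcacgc
In this order they lie at chr4:156200819-156200978 (minus strand), chr19:34583369-34583528 (plus), chr12:26456453-26456612 (minus), chr3:142620503-142620662 (plus), chr11:58199396-58199555 (plus) and chr11:58214817-58214976 (plus). Igtp and Irgm2, neighbours on chromosome 11, share a stretch of 38 identical bases.

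All 6 of these genes were higher in the labelled library. Isg15, a ubiquitin-like protein, had 2549 counts in untreated WT, 592 in the untreated labelled library, 283 in WT AOM/DSS and 4608 in the labelled library, 11.2-fold higher with AOM/DSS after scaling (9.94 to 12.7). Ifit3, which binds foreign RNA with its relatives, stood at 47.1, 10.5, 7.84 and 90.8 CPM, and Rsad2, the antiviral enzyme viperin, at 42.6, 13.3, 6.65 and 67.9 CPM in the same order. For these 3 the untreated WT library was the second highest and WT AOM/DSS the lowest. Of the GTPases, Gbp2 stood at 35.9, 46.7, 39.9 and 1245 CPM, Igtp at 45.5, 26.2, 43.1 and 804 CPM, and Irgm2 at 52.0, 41.5, 33.8 and 318 CPM. For each of them the other 3 libraries lay between 26.2 and 52.0 CPM, far below the labelled library.

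Over the lists, 27 of 28 type I response genes were past 2-fold on the higher side and 0 on the lower (median 2.59), the remaining one being the RNA sensor Ifih1 at 1.73-fold (1.63 to 1.84). In the untreated pair the same list had a median of -1.58. Their summed level was 3375, 1169, 859 and 4721 CPM in untreated WT, untreated labelled, WT AOM/DSS and the labelled library. Of 27 interferon-gamma GTPases and effectors 25 were higher and 0 lower (median 3.57, against -0.05 in the untreated pair), with sums of 916, 847, 946 and 7654 CPM. Tgtp1, a GTPase against vacuolar pathogens, was 79.8-fold higher (64.7 to 99.5), although its copy Tgtp2 may share its reads. Ido1, which degrades tryptophan, was 53.8-fold higher (46.0 to 63.3) and the T cell attractant Cxcl9 38.3-fold (32.4 to 45.7). Irf8, a factor of myeloid cells, was the one gene below 0, at 121 and 105 CPM. Ifng, interferon gamma itself, had 1, 0, 8 and 101 counts.

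The ISRE-type letters (GAAA, any 2 bases, GAAA) occurred, on either strand within 250 bases before the start, in 11 of the 15 interferon-gamma list members with a promoter in the table (73.3%) and in 8 of 19 type I members (42.1%), against 3.35% of the 10940 measured genes with a promoter. The GAS-type letters TTCNNNGAA occurred in 8 of 15 interferon-gamma members (53.3%) against 7.37% of genes, and in 1 of 20 MHC class I genes. In 8 interferon members both kinds occurred, and in 1 of them the matches shared bases. Most interferon-gamma members with a match of either kind were Gbp, Igtp, Irgm or Tgtp genes. These are families of related sequence, so their matches are not independent. The TCF-type letters CTTTGAT occurred in 1 of 11 Wnt feedback genes (Sp5) and 1 of 12 crypt stem cell genes against 2.89% of genes. A CArG box occurred in 1 of 12 smooth muscle genes against 1.45%, the CDX-type letters TTTATGG in 0 of 13 colonocyte transport genes against 1.92%, and the HNF4-type letters CAAAGTCCA in 2 of 14 absorptive genes against 0.503%. A match is a description of the letters in this window and does not show that a factor was bound.

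Antigen presentation genes were higher alongside. Of 23 MHC class I genes 17 were higher and 1 lower (median 1.25), and of 15 class II genes 9 were higher and 2 lower (median 1.47). Tap1, which carries peptides to class I molecules, stood at 78.8 and 484 CPM, and H2-K1 at 1445 and 3001 CPM. H2-Aa, a class II chain, stood at 287, 251, 302 and 1410 CPM in untreated WT, untreated labelled, WT AOM/DSS and the labelled library, 4.67-fold higher with AOM/DSS (4.55 to 4.79). The lower genes were H2-T3, a class I-like molecule of the intestinal epithelium, 253-fold lower (148 to 476), and the paired B cell chaperone chains H2-Ob, 7.02-fold lower (5.61 to 8.86), and H2-Oa, 3.07-fold lower (2.29 to 4.15). H2 genes include close copies, so single members are uncertain.

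Macrophage genes were higher in 20 of 24 cases and lower in 1 (median 1.46). Csf1r, the receptor that macrophages need to survive, stood at 85.5, 76.4, 51.3 and 184 CPM in untreated WT, untreated labelled, WT AOM/DSS and the labelled library. Fcgr1, the high-affinity antibody receptor induced by interferon gamma, was 7.59-fold higher (6.18 to 9.41), and C1qa, a complement subunit made by macrophages, 2.77-fold (2.55 to 3.02). Cd163, a scavenger receptor of resident macrophages, was 7.54-fold lower (5.28 to 11.0). Neutrophil genes had 4 of 17 higher and 1 lower (median -0.31). S100a8, a calprotectin subunit, had 1 and 2 counts in the untreated libraries and 2009 and 1969 after AOM/DSS, 1.48-fold lower in the labelled library (1.39 to 1.58). Ltf, lactoferrin, was 11.3-fold higher (9.22 to 13.9), while the granule gene Mpo had 12 and 3 counts.

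Mast cell genes were higher with their proteases in front. Of 14 mast cell and eosinophil genes that passed the minimum 10 were higher and 0 lower (median 1.89, but 0.88 with no count minimum and 0.63 with a pseudocount of 5 CPM). All 10 passed it through the labelled library alone, so the minimum favoured higher values there. Mcpt2, a protease of mucosal mast cells, had 2, 27, 32 and 2450 counts in untreated WT, untreated labelled, WT AOM/DSS and the labelled library, 52.7-fold higher with AOM/DSS (37.2 to 77.2). Cpa3, the mast cell carboxypeptidase, was 22.9-fold higher (12.3 to 48.1). Kit, their growth factor receptor, which interstitial cells of the gut wall also carry, had a log2 ratio of -0.92, Hdc, which makes histamine, one of -0.89, and the eosinophil granule genes Epx and Prg2 stayed under the minimum with 5 and 26 counts in WT AOM/DSS and 2 and 12 in the labelled library. Alox15, a lipoxygenase, was the list's top gene with 61, 22, 4 and 5039 counts, 867-fold higher (338 to 3184). Other eicosanoid genes diverged. Pla2g2a, a secreted phospholipase, had 112 and 7219 counts in the AOM/DSS pair and Alox12 was 68.0-fold higher (42.9 to 115), whereas Hpgd, which inactivates prostaglandins, was 10.8-fold lower (9.77 to 12.1) and Ptgs2, inducible cyclooxygenase, 2.45-fold lower (2.17 to 2.75).

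Lymphocyte genes went in different directions. General T cell genes had 3 of 23 higher and 1 lower (median 0.54), and the T cell receptor subunit Cd3e stood at 4.68 and 5.05 CPM, 1.08-fold (0.837 to 1.40). Cytotoxic genes were higher in 6 of 12 cases (median 1.02), with granzyme gene Gzmb at 8.35 and 53.6 CPM. Their median was 0.97 with upper-quartile factors, 0.63 with no count minimum and 0.55 with a pseudocount of 5 CPM. Of 20 regulatory T cell and checkpoint genes 13 were higher and 2 lower (median 1.29, and 0.80 with a pseudocount of 5 CPM): Foxp3, the factor of regulatory T cells, stood at 1.05 and 6.31 CPM and Cd274, the ligand PD-L1, at 13.1 and 85.6 CPM. B cell and germinal centre genes were lower in 15 of 19 cases and higher in 1 (median -2.06). Cr2, a complement receptor of B cells and follicular dendritic cells, had 8, 200, 296 and 44 counts in untreated WT, untreated labelled, WT AOM/DSS and the labelled library, 9.77-fold lower after scaling in the AOM/DSS pair (7.10 to 13.7). In the untreated pair the labelled library was the higher one, with a list median of 2.15. Antigen receptor V segments had 43 of 98 lower and 10 higher.

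Cytokine pathways linked to Card9 showed no common direction. Of 25 genes of the interleukin 1 family and inflammasome 2 were higher and 5 lower (median -0.25), and of 23 TNF and NF-kB feedback genes 5 were higher and 0 lower (median 0.36). Il1b, the main secreted cytokine of the first list, stood at 1.51 and 1.89 CPM in the untreated pair, 156 in WT AOM/DSS but 53.2 CPM in the labelled library, 2.94-fold lower (2.77 to 3.12). Tnf was 3.73-fold higher (3.09 to 4.52) at 6.10 and 22.7 CPM, and Nfkbia, the inhibitor that NF-kB induces, 1.30-fold lower (1.24 to 1.36). Nlrp6, an inflammasome sensor of the gut epithelium, was 5.78-fold lower (5.51 to 6.07). Of 17 genes of the interleukin 6, 17 and 22 axis 2 were higher and 3 lower, and Il6, Il17a, Il17f and Il22 stayed under the minimum.

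Genes of the muscle coat were lower throughout. Each of 16 measured smooth muscle genes was past 2-fold on the lower side, with log2 ratios from -2.79 to -1.69 (median -2.28). Myh11, smooth muscle myosin, stood at 3464, 2772, 2424 and 350 CPM in untreated WT, untreated labelled, WT AOM/DSS and the labelled library, so the other 3 libraries lay together. Enteric neuron, glia and interstitial cell genes were lower in 17 of 21 cases and higher in 1 (median -1.72, and -0.79 with a pseudocount of 5 CPM), with Gfap, the filament of glia, 38.9-fold lower (24.3 to 66.2). Ano1, the chloride channel of pacemaker cells that some epithelial tumours also express, was the higher gene at 60.3 and 133 CPM. Whether the muscle layer was included to the same extent in each sample was not tested.

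Other stromal lists were nearly level. Endothelial and lymphatic genes had 3 of 23 higher and 2 lower (median 0.03), with Pecam1 at 79.8 and 63.8 CPM. Fibroblast genes had 2 of 18 higher and 2 lower (median 0.00), and collagen and matrix genes 2 of 27 higher and 4 lower (median 0.14). Postn, periostin, was 3.61-fold lower (3.43 to 3.79), and Col17a1, a collagen of epithelial anchoring, 5.61-fold higher (3.55 to 9.29). Adipocyte genes were lower in 12 of 15 cases (median -2.60) and equally so in the untreated pair (-2.66). Adipoq, the hormone adiponectin, stood at 54.8, 0.506, 17.1 and 0.947 CPM in untreated WT, untreated labelled, WT AOM/DSS and the labelled library, so fat transcripts followed the label in both pairs.

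The neighbourhood of genes on chromosomes showed 17 runs of at least 5 neighbouring measured genes past 2-fold the same way, 12 higher and 5 lower. Most predicted genes, antigen receptor segments and pseudogenes, other than those of defensins, were left out first. Genes of a run are therefore not always strictly adjacent. Besides the defensins, the higher runs were mostly gene families: 7 genes from Irgm1 to Olfr56 with Tgtp1 and Tgtp2, 7 Slfn genes, Gbp genes on chromosomes 3 and 5 (5 each), 6 Ly6 genes and 5 genes from H2-DMb1 to Tap2. On chromosome 14 the mast cell proteases Cma1, Mcpt1, Mcpt2 and Mcpt4 were followed by Gzmb, Atp12a and Cenpj, all higher. The lower runs held Ugt1a, Akr1c, Ces1 and Btnl genes and the Hoxb genes. The medians of whole chromosomes stayed between -0.05 and 0.14. Neighbours of such families share sequence as well as place, so their values are not independent.

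**Figure D5:**
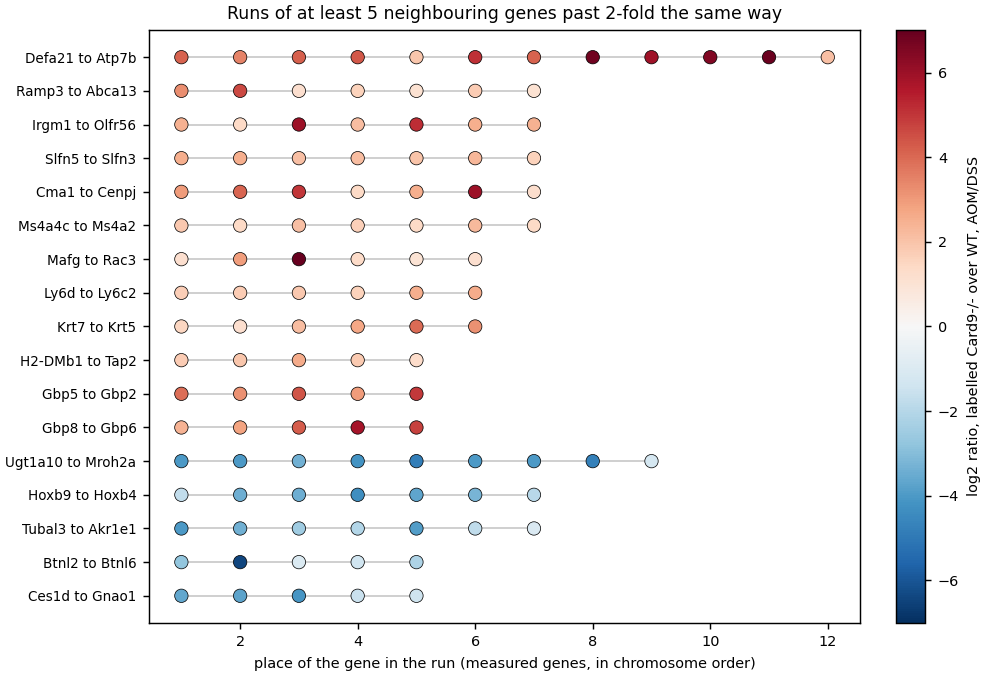
Each row is a run of at least 5 neighbouring measured genes past 2-fold the same way, named by its first and last gene, and each point a gene coloured by its log2 ratio of the AOM/DSS library labelled Card9-/- over WT AOM/DSS. The 12 runs at the top are higher, led by the defensin run of 12 genes, and the 5 at the bottom are lower, led by the Ugt1a run of 9. Most predicted genes and pseudogenes, other than those of defensins, were left out of the order.

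The 15 genes with the largest gain in CPM took 0.504% of counts in WT AOM/DSS and 2.58% in the labelled library. Among them were Spock2, Lyz1 and Ptma, the interferon-induced Gbp2, Igtp, Rnf213, Ifitm3, Ly6e and Ly6a, the MHC genes H2-K1, H2-D1, H2-Aa and Cd74, and AI747448. The 15 genes with the largest loss took 8.32% and 2.67%. Dmbt1, a mucosal scavenger protein, led them at 20047 and 3789 CPM, followed by Lars2, the mitochondrial leucyl-tRNA synthetase, and Muc2. Lars2, at 13602 and 4983 CPM, was among the genes above 1% of a library, as were Dmbt1, Muc2, Rn18s-rs5 and the mitochondrial gene COX1. Which transcripts the Lars2 reads came from was not tested. Others among them were Car1, Zg16 and Fcgbp, the epithelial genes Ceacam1, Lgals4, Lypd8, Pigr and Krt8, the antibacterial lectin gene Reg3b (2707 and 106 CPM), and Myh11.

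Across the 14727 genes measured in both pairs, a difference under the label could go the same way with and without AOM/DSS or the opposite way. For comparison, 11.8% of all 15758 genes of the AOM/DSS pair were higher and 12.4% lower, a wider set than these 14727. In the untreated pair 685 of 15331 genes were higher and 517 lower. Each share below counts only genes measured in both pairs, so the lists it refers to are shorter than the full lists. Of the genes lower in the untreated pair 49.5% were also lower in the AOM/DSS pair, 226 genes that made up 12.1% of the latter's lower genes. Of those higher in the untreated pair 19.4% were also higher here, 117 genes or 8.27% of the higher ones. In the opposite direction, 22.02% of those higher in the untreated pair (133 genes, 7.13% of the lower ones here) were lower here, and 21.7% of those lower there (99 genes, 7.00% of the higher ones here) were higher. The pairs share no library, but with 1 library per group the difference between them was not tested.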

How the data were processed

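The authors deposited whole-number read counts per gene symbol, without normalization. Per the labels' protocols, TRIzol RNA went into Ion Proton libraries. Per the submitters' processing notes the build was GRCm38 (mm10). The sources used here name no aligner, counter, annotation or strand, so reads of overlapping, antisense or near-identical genes cannot be told apart. Samples were grouped by title. CPM used TMM factors over all 4 libraries (edgeR 4.0.16, R 4.3.3): 0.9915 (untreated WT), 0.9311 (untreated labelled), 0.9473 (WT AOM/DSS) and 1.1434 (labelled AOM/DSS). Intervals are exact (Clopper-Pearson, conditional on both counts). A fold against 0 counts used a floor of 3 counts in that library.

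The comparison and the 71 lists were chosen with earlier results of these data known. Named genes were Card9, the 15 highest and 15 lowest ratios, the 15 largest gains and losses in CPM, and per list the 5 largest absolute ratios and the highest CPM, leaving out antigen receptor segments, mitochondrial and ribosomal RNA genes, predicted genes, pseudogenes and 27 symbols turned into dates. Some genes that this rule names are not reported here. Other members were named for a list's counts or range. RefSeq positions matched 15398 genes (97.7%). Alternatives were DESeq2 (1.42.0) size factors, upper-quartile factors, library totals, TMM over the pair, other pseudocounts and minimums, thinning, and leaving out genes above 1% of a library. The calculation was checked on simulated counts with counting error alone and fixed scaling. That check could not address variation between animals or libraries.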

Additional observations from a re-analysis of the deposited data

Results flagged for a closer look

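These lists were found by setting the AOM/DSS pair beside the untreated pair of the same labels. The median of the type I interferon response list lay past 2-fold on opposite sides, at 2.59 with AOM/DSS and -1.58 without, a difference of 4.17 on the log2 scale. The B cell and germinal centre list did the same the other way, at -2.06 and 2.15, a difference of -4.22. With 1 library in each group, the difference between the pairs was not tested. Isg15 had 2549, 592, 283 and 4608 counts in untreated WT, untreated labelled, WT AOM/DSS and labelled AOM/DSS, and Cr2 had 8, 200, 296 and 44 counts in the same order.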

How the results depend on the processing

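Under 10 alternatives the counts of 1867 higher and 1951 lower genes stayed within 1.5 times of those values, except that a pseudocount of 5 CPM left 1131 higher and 1234 lower. Of the 33 lists with a median past 2-fold, 20 stayed past it the same way under each alternative. With a pseudocount of 5 CPM 11 lists changed side, among them squamous epithelium (0.77), mast cell and eosinophil (0.63) and enteric neuron (-0.79). With no count minimum 7 did, among them anterior Hox (-0.91), posterior Hox (0.23) and mast cell and eosinophil (0.88). The pancreas exocrine median reversed, from 3.98 to -0.0938 with no count minimum, where members with at least 1 count in the pair joined the 4 past the minimum. Of 337 named genes past 2-fold, 0 changed sign and 42 came under 2-fold in at least 1 alternative. Card9 stayed higher in the labelled library, with log2 ratios from 0.30 to 0.70. No paired analysis was possible because each group has 1 library, and for the same reason no library could be left out. Depth limits genes such as Notum and Hoxb13, whose folds rest on 1 count in WT AOM/DSS.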

Other observations

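Lists that the results do not otherwise describe gave these values in the AOM/DSS pair. Complement and coagulation genes were higher in 13 of 25 cases and lower in 3 (median 1.02, but 0.96 with upper-quartile factors and 0.70 with a pseudocount of 5 CPM). Cfi, a protease that inactivates complement, had 4, 3, 2 and 848 counts in untreated WT, untreated labelled, WT AOM/DSS and labelled AOM/DSS. Plat, the tissue plasminogen activator, was 16.1-fold higher (14.6 to 17.9). Nos2, inducible nitric oxide synthase, stood at 1.79, 8.47, 42.0 and 528 CPM in the same order. Of clock genes 9 of 18 were lower and 1 higher (median -1.10, but -0.84 with library totals, -0.69 with a pseudocount of 5 CPM and -0.69 with a minimum of 200 counts): Dbp, an output gene of the clock, was 8.45-fold lower (6.89 to 10.5) and Nr1d1, a repressor of the clock, 6.67-fold lower (5.83 to 7.66), while Arntl, which drives both, was 1.35-fold higher (1.21 to 1.51). The time of day of collection is not given in the sources used here.

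Metal handling genes included Trpv6, the epithelial calcium channel, with 9, 92, 0 and 613 counts, at least 141-fold higher in labelled than in WT AOM/DSS by a floor of 3 counts in WT AOM/DSS, and Slc30a10, a manganese exporter, with 3040, 148, 367 and 2 counts. Mt4, a metallothionein of squamous epithelium, had 0, 1, 2 and 753 counts. Alb, serum albumin, had 7, 21, 2 and 923 counts, whereas 10 of 15 liver genes did not pass the count minimum. Bmp7, a BMP ligand, was 12.5-fold higher (10.5 to 14.9), and Onecut2, a transcription factor of liver and small intestine, had 3, 0, 2 and 304 counts. Haemoglobin genes, which follow blood, were lower in 4 of 4 cases (median -2.21), although near-identical copies may share reads.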
